A study of Mus musculus with 18 samples.

Results

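Lysosomes are the acidic organelles in which cells break down material taken up from outside and worn-out parts of their own. The set described here holds 36 genes of that organelle, chosen by name from the 35869 genes listed for each library: soluble hydrolases that cut glycolipids, glycosaminoglycans, glycoprotein glycans, glycogen, lipids and proteins, the proteins that assist them, proteins of the lysosomal membrane, and the transcription factors Tfeb and Tfe3. The cathepsin proteases were not part of the set. The rule for membership uses names and no measured value, and each of the 36 genes had a row in the files.

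RNA was sequenced from microglia and astrocytes that had been sorted by flow cytometry from enzymatically dissociated brains of C57BL/6 mice, 1 library per mouse and cell type. KO mice carried the tamoxifen-inducible recombinase Cx3cr1CreERT2 and a floxed Tgfb1 gene (Cx3cr1CreERT2-Tgfb1fl/fl), which encodes the cytokine TGF-beta 1. Control mice carried Cx3cr1CreERT2 alone and are labelled WT. All mice received tamoxifen by oral gavage in 5 doses of 180 mg/kg, so recombinase and drug were shared by KO and control. The libraries fell into 4 groups: KO microglia (n = 4, mice 1 to 4), control microglia (n = 4, mice 1, 2, 4 and 5), KO astrocytes (n = 4, mice 1 to 4) and control astrocytes (n = 5, mice 1 to 5). Cx3cr1 drives the recombinase in microglia and also in other macrophages of the brain, and the astrocytes come from the same brains without being its intended target. No ages are given in the labels.

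Microglia are the resident macrophages of the brain and clear debris, myelin and dead cells through their lysosomes. Lysosomal enzymes are made in the endoplasmic reticulum, tagged in the Golgi and carried to the lysosome, where a proton pump, the vacuolar ATPase, keeps the interior acid. Inherited loss of single enzymes causes storage diseases, many of which damage the brain. Tfeb and its relatives bind the sequence CACGTG in the promoters of many lysosomal genes and can switch them on together.

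Tgfb1, the targeted gene, had 1.8, 1.3, 1.7 and 2.0 TPM (a level per length of transcript, scaled to the same total in each library) in KO microglia, against 3.4, 2.9, 2.9 and 2.8 TPM in control microglia, a log2 difference of -0.57 (SE 0.16, adjusted p = 0.0258). The floxed part of the gene is not stated in the labels, so a level over the whole gene checks the deletion only in part. In KO astrocytes it had at most 0.3 TPM, against at most 0.1 TPM in control astrocytes. Log2 differences are given as KO minus control on the log2(TPM + 1) scale, which understates changes of weakly expressed genes, with p-values from limma's moderated test adjusted over all genes tested (Benjamini-Hochberg), and a gene is called where adjusted p was under 0.05. The libraries of all KO mice and of control mice 1 and 2 held 28.6 to 48.3 TPM of Xist, the RNA of the inactive X chromosome, while those of control mice 3, 4 and 5 were listed at 0 for it and held 46.0 to 56.3 TPM of the Y-linked Ddx3y. KO microglia were therefore also set against control mice 1 and 2 and against control mice 4 and 5 alone.

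The label of the sorted cells was checked against marker lists. The 10 microglial markers summed to between 15400 and 16620 TPM in KO microglia, 47750 and 50770 TPM in control microglia, 279 and 566 TPM in KO astrocytes, and 332 and 398 TPM in control astrocytes. The 10 astrocyte markers summed to between 77.1 and 93.2 TPM in KO microglia, 299 and 631 TPM in control microglia, 16220 and 29280 TPM in KO astrocytes, and 23010 and 26060 TPM in control astrocytes, with Fgfr3 at 0 in all microglial libraries. Between KO and control microglia 14.2% of all genes tested were called higher and 14.2% lower, the share to set beside the marker counts here. Aldh1l1 averaged 2.2 TPM in KO microglia and 0.15 TPM in control microglia. It met the filter of 1 TPM in 4 libraries only through KO microglia, so its test is not independent of that filter. Of the 6 astrocyte markers tested between KO and control microglia, with Aldh1l1 among them, 2 were higher and 1 lower. The lower one, Slc1a3, made up most of the sum in control microglia, with a mean of 36.6 TPM in KO microglia and 421 TPM in control microglia, while Aldoc averaged 30.1 TPM in KO microglia and 12.3 TPM in control microglia. The 10 markers of border-associated macrophages, a related population at the surfaces and vessels of the brain, summed to between 5960 and 6805 TPM in KO microglia, against 415 and 774 TPM in control microglia. Of these, 7 rose and 1 fell in KO microglia, and none was at 0 in all libraries of a group. Of the 10 microglial markers 9 fell, all but C1qa. Monocyte and neutrophil markers summed to between 36.3 and 40.8 TPM in KO microglia, with Plac8 at 0, against 36.1 and 63.0 TPM in control microglia, with Ngp at 0. Of the 3 of these 8 markers that were tested 1 was higher and 2 lower. Itga4 averaged 25.4 TPM in KO microglia and 0.85 TPM in control microglia, so it met the filter largely through KO microglia. Its call is not independent of that filter. Csf3r averaged 9.88 TPM in KO microglia and 31.2 TPM in control microglia. The 10 dissociation and early-response genes summed to between 853 and 1105 TPM in KO microglia, against 284 and 625 TPM in control microglia, and 5 rose and 1 fell of 9 tested. The part of these shifts in the results that follow was not tested, and fewer cells of a type and less RNA per cell cannot be told apart in such sorted bulk samples.

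The 36 genes together made up between 1.26% and 1.47% of all TPM in KO microglia, between 1.32% and 1.49% in control microglia, between 0.347% and 0.385% in KO astrocytes and between 0.382% and 0.42% in control astrocytes. In TPM this was 13500 ± 913 in KO microglia and 13830 ± 753 in control microglia (SD, n = 4 each), a difference well within the spread between mice. Cd68, Grn and Laptm5 supplied between 54.5% and 56.4% of that sum in KO microglia and between 52.0% and 54.9% in control microglia, while the same genes gave 4.57% to 7.48% in KO astrocytes and 4.37% to 5.63% in control astrocytes. The sums per role overlapped between KO and control microglia for each role except glycosaminoglycan breakdown, with 347 to 433 TPM in KO microglia and 485 to 564 TPM in control microglia, and the transcription factors, with 20.2 to 21.9 TPM in KO microglia and 23.7 to 26.5 TPM in control microglia. Without Arsb the other 5 genes of glycosaminoglycan breakdown summed to 286.5 to 362.2 TPM in KO microglia and 248.1 to 287.8 TPM in control microglia. Tfe3 alone had 16.6 to 20.0 TPM in KO microglia and 21.6 to 23.9 TPM in control microglia. In astrocytes the sums overlapped for each role except glycolipid and sphingolipid breakdown. That role had 1174 to 1405 TPM in KO astrocytes and 1458 to 1691 TPM in control astrocytes. Psap averaged 272 TPM in KO and 438 TPM in control astrocytes, Gm2a 350 and 419 TPM, and Smpd1 367 and 431 TPM. Of the 10 genes of the role 8 had lower and 2 higher log2 values in KO astrocytes, and 0 were called. Of the 36 genes, 34 had at least 1 TPM in all 17 libraries, and the others were Ids and Sgsh.

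**Figure D1:**
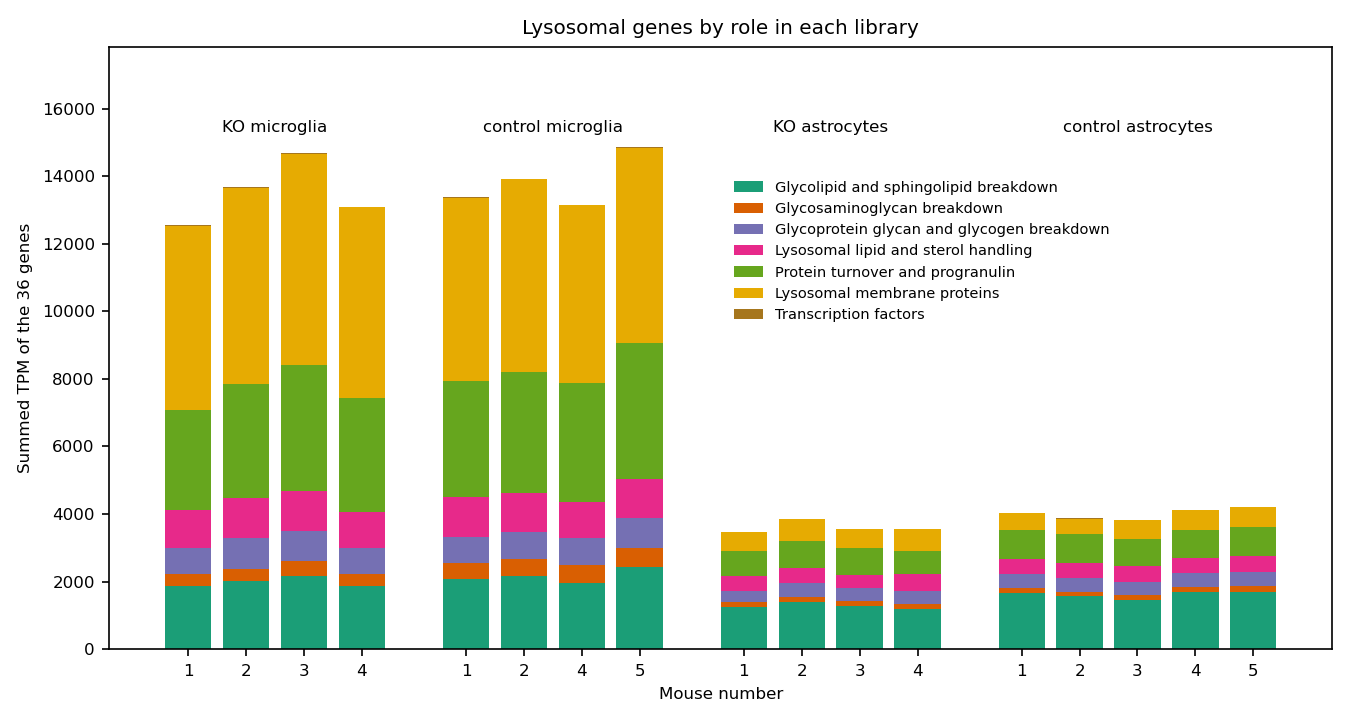
Summed TPM of the 36 lysosomal genes in each library, stacked by role, with libraries grouped from left to right as KO microglia, control microglia, KO astrocytes and control astrocytes and numbered by mouse. The stacks of KO microglia (12560 to 14690 TPM) and control microglia (13160 to 14850 TPM) overlapped in height, and those of astrocytes were lower, at 3471 to 3852 TPM in KO mice and 3820 to 4203 TPM in control mice.

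Single genes moved in both directions. In KO against control microglia 7 of the 36 genes rose, 7 fell and 22 did not pass the threshold. This is 38.9% of the genes called, where 28.4% of all 13054 genes tested were called, 14.2% higher and 14.2% lower. Their median log2 difference was 0.04, against 0.00 over all genes tested, and the median size of the difference irrespective of sign was 0.36, against 0.34. The values of KO and control libraries did not overlap for 14 of the 36, 7 higher and 7 lower, where 30.6% of all genes tested did not overlap, 14.8% higher and 15.7% lower. The genes that rose were Galc, Gla, Cd68, Sgsh, Neu1, Gusb and Asah1, and those that fell were Arsb, Npc1, Laptm5, Psap, Scarb2, Man2b1 and Gm2a. Against control mice 1 and 2 alone 8 rose and 6 fell, and against control mice 4 and 5 alone 4 rose and 6 fell. Gla, Galc, Arsb, Npc1, Cd68 and Laptm5 passed under each of the 16 alternative settings tried for this comparison.

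**Figure D2:**
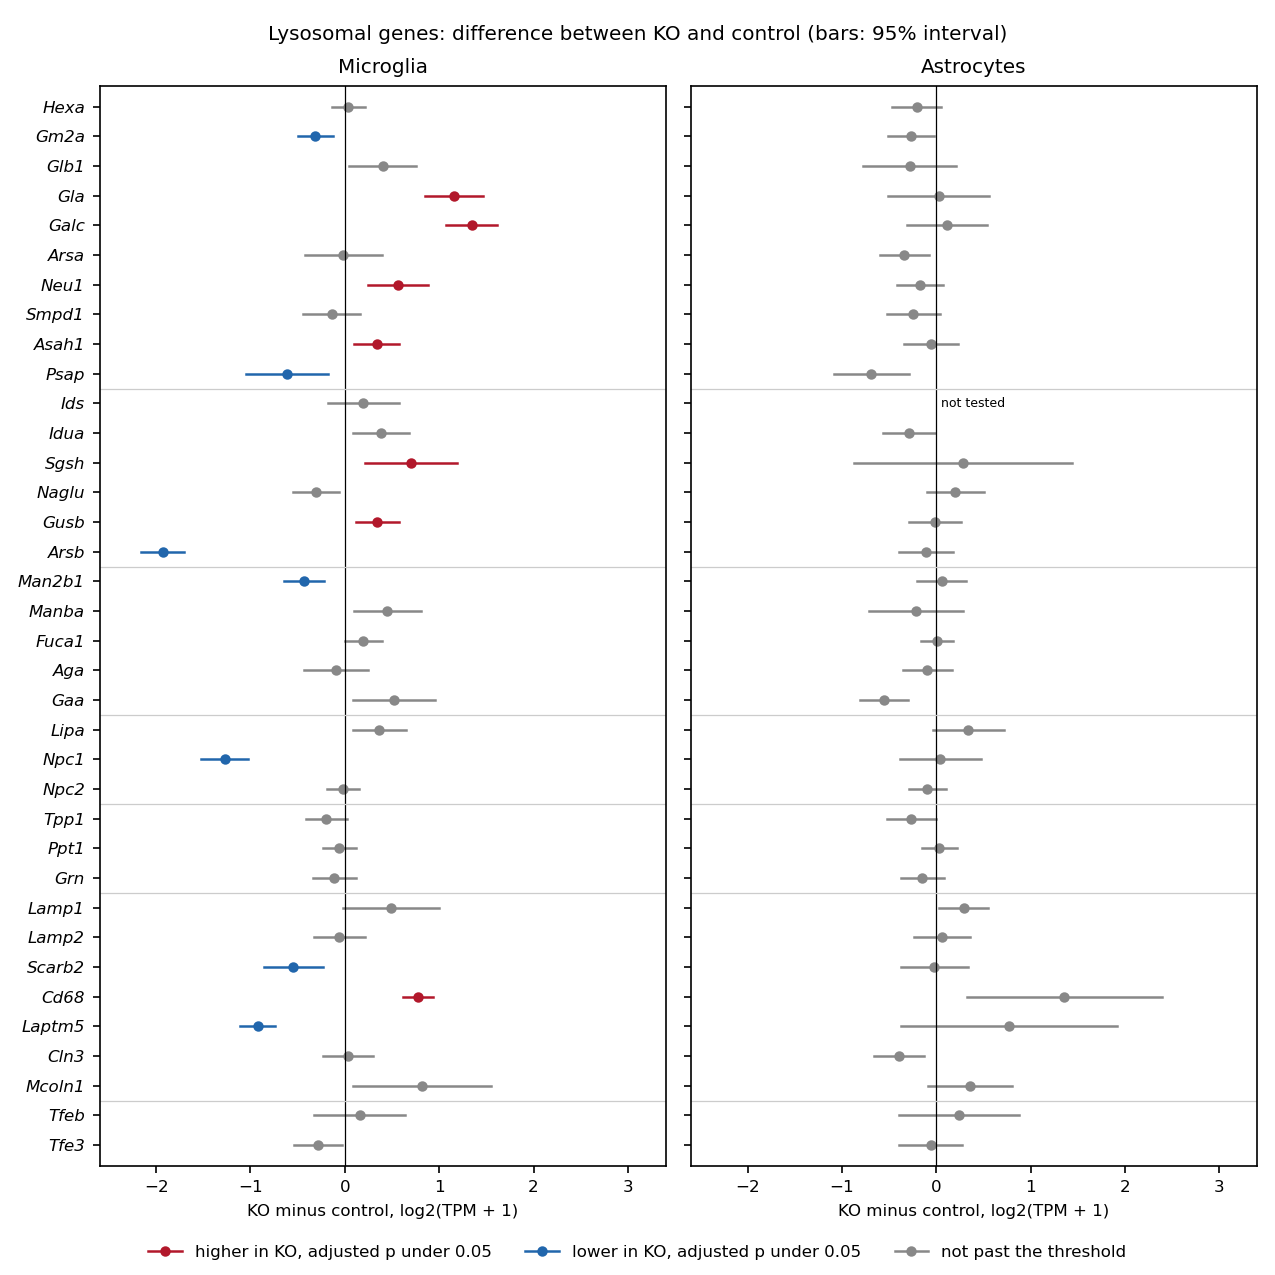
Log2 difference, KO minus control, on the log2(TPM + 1) scale for the 36 genes in microglia (left) and astrocytes (right), ordered by role with grey lines between roles. Points are limma estimates and bars their 95% intervals, red for genes higher in KO and blue for genes lower in KO at an adjusted p under 0.05, grey for the rest; Ids was not tested in astrocytes. In microglia 7 genes are red and 7 blue, and in astrocytes all tested genes are grey.

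Among the 10 genes of glycolipid and sphingolipid breakdown 4 rose and 2 fell in KO microglia. Here and for the roles that follow, 14.2% of all genes tested were called higher and 14.2% lower. Galc encodes galactosylceramidase, which cleaves the galactolipids of myelin, and lies at chr12:98202294-98259459 (GRCm38, as all gene positions here). Its level was 51.1, 53.2, 56.7 and 43.9 TPM in KO microglia, against 18.5, 18.0, 21.6 and 20.0 TPM in control microglia. All 4 KO libraries lay above all 4 control libraries, by 2.62-fold in the means and 1.34 (SE 0.12, adjusted p = 2.79e-05) on the log2 scale. Gla, at chrX:134588149-134601125, encodes alpha-galactosidase A, which removes the terminal galactose of globo-series glycolipids and is deficient in Fabry disease. Its level was 14.1, 12.9, 12.7 and 13.6 TPM in KO microglia, against 5.4, 5.2, 6.3 and 4.8 TPM in control microglia. The groups were again fully apart, with a log2 difference of 1.16 (SE 0.14, adjusted p = 1.82e-04) and a 2.46-fold higher mean. Gla is on the X chromosome, as are Ids, Lamp2 and Tfe3, and its difference was 1.18 (adjusted p = 0.00198) against control mice 1 and 2 and 1.14 (adjusted p = 0.00152) against mice 4 and 5.

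Neu1 encodes the lysosomal sialidase, which removes sialic acid from glycoproteins and gangliosides. It had 111.6, 113.8, 132.3 and 102.5 TPM in KO microglia, against 60.4, 88.0, 75.2 and 89.1 TPM in control microglia, and rose by 0.56 (SE 0.14, adjusted p = 0.0149) on the log2 scale without overlap. Asah1, the gene of acid ceramidase, had 143.0, 165.3, 168.2 and 140.6 TPM in KO microglia, against 115.2, 108.5, 134.2 and 129.7 TPM in control microglia. These groups did not overlap and the log2 difference was 0.34 (SE 0.11, adjusted p = 0.0396). The call of Asah1 ended when any of KO mice 1, 2 and 3 or control mice 1, 2 and 5 was left out (adjusted p between 0.0531 and 0.11).

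Psap and Gm2a, whose products assist such enzymes, fell. Psap encodes prosaposin, the precursor of the saposins that lift glycolipids out of membranes for the hydrolases. Its level was 374.0, 379.2, 466.5 and 358.6 TPM in KO microglia, against 564.3, 696.0, 410.9 and 813.6 TPM in control microglia. The values overlapped, since KO mouse 3 lay above control mouse 4, and the log2 difference was -0.62 (SE 0.19, adjusted p = 0.0401). It lost its call without any of KO mice 1, 2 and 4 or control mice 1, 2 and 5 (adjusted p between 0.0596 and 0.1004). Gm2a encodes the activator that presents GM2 ganglioside to beta-hexosaminidase A. Its level was 329.9, 372.0, 346.6 and 322.1 TPM in KO microglia, against 441.0, 401.2, 457.0 and 402.6 TPM in control microglia. There was no overlap, the log2 difference was -0.31 (SE 0.08, adjusted p = 0.0194), and the call ended without KO mouse 1, KO mouse 4 or control mouse 4 (adjusted p between 0.0522 and 0.0626).

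The other 4 genes of this role were not called. Hexa, the alpha subunit of beta-hexosaminidase, averaged 703 ± 41.2 TPM in KO microglia and 685 ± 44.9 TPM in control microglia (SD, n = 4 each), a log2 difference of 0.04 (95% interval -0.14 to 0.22, adjusted p = 0.774). Arsa, the sulfatide-cleaving arylsulfatase A, had a difference of -0.02 (95% interval -0.42 to 0.39, adjusted p = 0.961). For Smpd1, acid sphingomyelinase, it was -0.14 (95% interval -0.44 to 0.16, adjusted p = 0.498). Glb1, beta-galactosidase, had 56.9, 55.1, 67.5 and 56.3 TPM in KO microglia, against 43.1, 54.2, 49.6 and 33.0 TPM in control microglia, so that the groups did not overlap while the test gave 0.40 (adjusted p = 0.0881); without control mouse 2 it passed (adjusted p = 0.0413).

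Of the 6 genes of glycosaminoglycan breakdown 2 rose and 1 fell. Arsb, at chr13:93771630-93943016, encodes arylsulfatase B, which removes sulfate from dermatan and chondroitin sulfate. Its level was 60.6, 64.6, 71.2 and 69.1 TPM in KO microglia, against 220.0, 271.7, 258.4 and 276.5 TPM in control microglia. Each KO library lay below each control library, and the mean was 3.87-fold lower in KO microglia, a log2 difference of -1.93 (SE 0.10, adjusted p = 1.11e-06). This was the largest difference of the 36 genes in this comparison. It brought Arsb in KO microglia to a level next to that of astrocytes, where it had 64.6 to 92.8 TPM in KO mice and 74.3 to 94.5 TPM in control mice. On the opposite strand, 32.3% of its exon bases overlap the annotated gene Gm26527, and whether the counting used strand is not given. The difference was -1.87 (adjusted p = 5.91e-05) against control mice 1 and 2 and -2.00 (adjusted p = 1.45e-05) against mice 4 and 5.

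Gusb encodes beta-glucuronidase, which acts on several glycosaminoglycans. It had 194.4, 213.4, 248.9 and 198.9 TPM in KO microglia, against 164.5, 157.2, 166.4 and 182.6 TPM in control microglia, with no overlap and a log2 difference of 0.34 (SE 0.10, adjusted p = 0.0294). Leaving out any of KO mice 2 and 3 or control mice 1, 2 and 4 ended that call (adjusted p between 0.0582 and 0.0747). Sgsh encodes heparan N-sulfatase and shares 21.6% of its exon bases with Card14 on the opposite strand, which had at most 0.3 TPM in microglia. Its level was 12.1, 12.9, 16.2 and 11.5 TPM in KO microglia, against 7.1, 6.4, 6.2 and 12.1 TPM in control microglia. Control mouse 5 lay within the KO range, the log2 difference was 0.70 (SE 0.22, adjusted p = 0.0375), and the call ended without any single one of the other 7 libraries (adjusted p between 0.056 and 0.105).

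Idua, alpha-L-iduronidase, had 27.0, 29.6, 31.1 and 23.4 TPM in KO microglia, against 18.9, 20.4, 20.8 and 24.0 TPM in control microglia. The groups overlapped at KO mouse 4 and control mouse 5, with a difference of 0.38 (adjusted p = 0.0562) that passed without KO mouse 4 (adjusted p = 0.0348). Naglu, the alpha-N-acetylglucosaminidase of heparan sulfate breakdown, averaged 56.2 ± 5.34 TPM in KO microglia and 69.7 ± 6.22 TPM in control microglia (SD, n = 4 each), a difference of -0.31 (adjusted p = 0.0644) that passed without KO mouse 3 (adjusted p = 0.0494) or control mouse 2 (adjusted p = 0.0449). Ids, iduronate 2-sulfatase, was low throughout, at 1.9 to 2.6 TPM in KO microglia and 1.5 to 2.2 TPM in control microglia, and its difference was 0.19 (95% interval -0.18 to 0.57, adjusted p = 0.445).

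**Figure D3:**
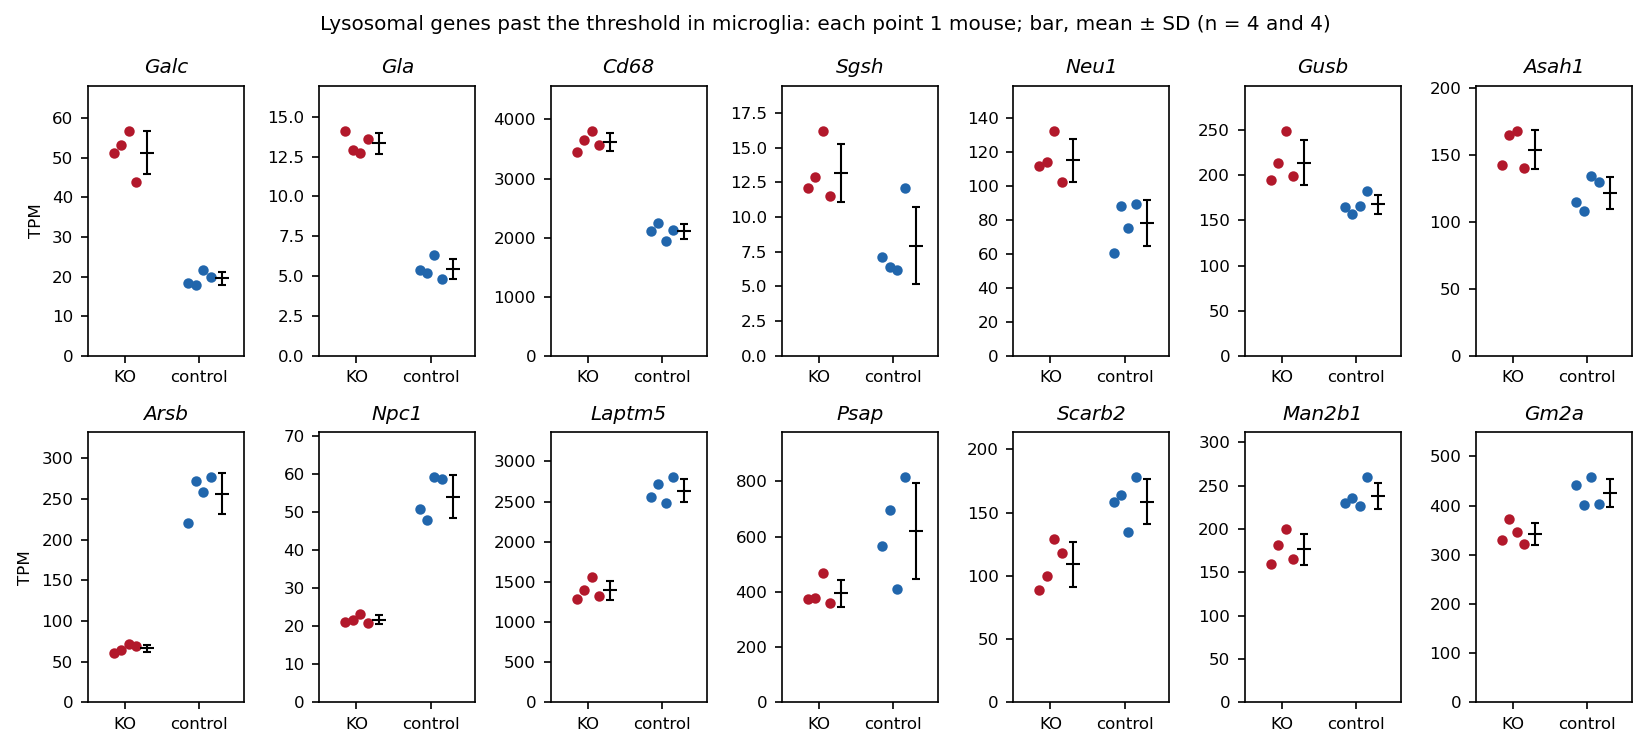
TPM of the 14 genes past the threshold in microglia, 1 panel per gene, with the 7 that rose in the upper row and the 7 that fell in the lower row. Each point is 1 mouse, KO left of control, with mean ± SD beside them (n = 4 and 4), on linear axes from 0. The groups overlap for Sgsh and Psap and are apart for the other 12 genes.

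Glycoprotein glycan and glycogen breakdown had 1 gene called of 5. Man2b1, lysosomal alpha-mannosidase, had 159.3, 181.0, 200.1 and 164.9 TPM in KO microglia, against 229.7, 235.3, 226.9 and 259.3 TPM in control microglia. All KO libraries lay lower, with a log2 difference of -0.43 (SE 0.10, adjusted p = 0.00807). Gaa encodes acid alpha-glucosidase, which digests glycogen and is deficient in Pompe disease. It had 55.7, 57.5, 71.0 and 67.5 TPM in KO microglia, against 31.4, 58.5, 37.0 and 51.4 TPM in control microglia, overlapping at control mouse 2, and its difference of 0.52 (adjusted p = 0.0743) passed without that mouse (adjusted p = 0.0225). Manba, beta-mannosidase, differed by 0.45 (adjusted p = 0.0606) and passed without KO mouse 4 (adjusted p = 0.0234). Fuca1, alpha-L-fucosidase, averaged 487 ± 43.1 TPM in KO microglia and 425 ± 23.6 TPM in control microglia (SD, n = 4 each), a difference of 0.19 (adjusted p = 0.134). Aga, aspartylglucosaminidase, differed by -0.10 (95% interval -0.43 to 0.24, adjusted p = 0.695).

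Npc1 and Npc2 hand cholesterol out of the lysosome, and Lipa, lysosomal acid lipase, frees that cholesterol from its esters. Of these 3 genes 1 fell and none rose. Npc1, the membrane protein of the pair, had 21.2, 21.7, 23.3 and 20.9 TPM in KO microglia, against 50.7, 48.0, 59.1 and 58.6 TPM in control microglia. The KO libraries lay close together and below all control libraries, at 2.48-fold lower in the mean and a log2 difference of -1.27 (SE 0.11, adjusted p = 2.52e-05). Npc2, the soluble partner, averaged 895 ± 34.2 TPM in KO microglia and 908 ± 60.4 TPM in control microglia (SD, n = 4 each), a log2 difference of -0.02 (95% interval -0.19 to 0.15, adjusted p = 0.880). Lipa had 219.8, 254.7, 251.8 and 186.2 TPM in KO microglia, against 167.3, 154.2, 189.8 and 192.7 TPM in control microglia. It differed by 0.37 (adjusted p = 0.0534) and passed without KO mouse 4 (adjusted p = 0.0188), the KO library in which it was lowest.

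None of the 3 genes of protein turnover passed the threshold. Grn encodes progranulin, a secreted and lysosomal glycoprotein whose loss causes frontotemporal dementia. Its level was 2099, 2412, 2727 and 2505 TPM in KO microglia, against 2454, 2683, 2416 and 2969.6 TPM in control microglia, and the ranges overlapped in part, with a log2 difference of -0.11 (95% interval -0.34 to 0.12, adjusted p = 0.469). Tpp1, tripeptidyl peptidase 1, differed by -0.20 (95% interval -0.42 to 0.02, adjusted p = 0.176) and Ppt1, palmitoyl-protein thioesterase 1, by -0.06 (95% interval -0.24 to 0.12, adjusted p = 0.646).

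Of the 7 membrane proteins 1 rose and 2 fell. Cd68, at chr11:69664213-69666153, encodes a heavily glycosylated lysosomal membrane protein of macrophages. It had 3452, 3645, 3806 and 3563 TPM in KO microglia, against 2111, 2252, 1946 and 2133 TPM in control microglia. All KO libraries lay above all control libraries, 1.71-fold in the means, with a log2 difference of 0.78 (SE 0.07, adjusted p = 3.56e-05). Laptm5, at chr4:130913125-130936141, encodes a lysosomal membrane protein of blood-derived cells and macrophages. It had 1293, 1401, 1557 and 1320.1 TPM in KO microglia, against 2551, 2714, 2481 and 2799 TPM in control microglia. The groups were apart in the opposite direction to Cd68, at 1.89-fold lower in the mean and a log2 difference of -0.92 (SE 0.08, adjusted p = 2.92e-05). The ratio of Cd68 to Laptm5 TPM within a library was 2.67, 2.6, 2.44 and 2.7 in KO microglia, against 0.827, 0.83, 0.784 and 0.762 in control microglia, so these abundant membrane protein genes changed rank: Cd68 was the highest of the 36 genes in the mean of KO microglia, and Laptm5 the highest in that of control microglia.

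Scarb2 encodes the membrane protein that carries glucocerebrosidase to the lysosome. Its level was 89.0, 100.1, 129.1 and 118.4 TPM in KO microglia, against 158.6, 164.2, 134.6 and 177.8 TPM in control microglia, without overlap and with a log2 difference of -0.54 (SE 0.14, adjusted p = 0.0150). It was -0.57 (adjusted p = 0.0369) against control mice 1 and 2 and -0.51 (adjusted p = 0.0664) against mice 4 and 5. Lamp1 and Lamp2 encode the main glycoproteins that line the lysosomal membrane. Lamp1 had 86.2, 80.5, 143.7 and 163.6 TPM in KO microglia, against 71.3, 77.4, 92.2 and 80.5 TPM in control microglia. KO mice 3 and 4 lay above all controls and KO mice 1 and 2 among them, and the difference was 0.49 (95% interval -0.02 to 1.00, adjusted p = 0.141). Lamp2 averaged 473 ± 68.0 TPM in KO microglia and 489.9 ± 44.8 TPM in control microglia (SD, n = 4 each), a difference of -0.06 (95% interval -0.33 to 0.21, adjusted p = 0.776).

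Mcoln1, the calcium channel TRPML1 of the lysosomal membrane, was the gene of the set with the widest standard error in microglia. It had 46.8, 47.0, 65.9 and 75.0 TPM in KO microglia, against 19.7, 23.8, 61 and 37.1 TPM in control microglia. KO mice 3 and 4 were again higher than KO mice 1 and 2, control mouse 4 lay among them, and the difference was 0.82 (SE 0.33, adjusted p = 0.0931). It was 1.37 (adjusted p = 0.00421) against control mice 1 and 2 and 0.27 (adjusted p = 0.485) against control mice 4 and 5, and without control mouse 4 it was 1.12 (adjusted p = 0.0121). Cln3, the membrane protein of juvenile Batten disease, averaged 25.8 ± 2.30 TPM in KO microglia and 25.1 ± 2.20 TPM in control microglia (SD, n = 4 each), a log2 difference of 0.04 (95% interval -0.23 to 0.30, adjusted p = 0.849).

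The transcription factor genes were not called. Tfeb had 1.9, 2.1, 2.4 and 3.6 TPM in KO microglia, against 1.5, 2.5, 1.8 and 2.7 TPM in control microglia, and the ranges overlapped in part, with a difference of 0.16 (95% interval -0.32 to 0.64, adjusted p = 0.641). Tfe3 had 20.0, 18.4, 19.4 and 16.6 TPM in KO microglia, against 23.9, 21.6, 21.9 and 23.8 TPM in control microglia. Its KO libraries lay below all control libraries, with a difference of -0.28 (95% interval -0.54 to -0.03, adjusted p = 0.0971). Both factors are known to be controlled largely by their place in the cell, which RNA levels do not show.

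The promoters of the set were searched for the Tfeb-family sequence CACGTG, which reads the same on both strands, from 250 bases before to 50 bases after each start site in the RefSeq promoter table (GRCm38.p6). The table held 33 of the 36 genes, and Aga, Asah1 and Npc1 had no entry. The sequence occurred in promoters of 9 of these 33 genes (27.3%): Arsa, Cln3, Gaa, Gla, Glb1, Lamp1, Mcoln1, Naglu and Sgsh. By promoter this was 9 of 38 (23.7%), where 7.15% of all 32851 promoters held it. The longer palindrome in which GT precedes and AC follows CACGTG occurred in 1 gene of the set, Cln3, and in 0.326% of all promoters. In KO microglia 2 of the 9 genes with CACGTG rose, Gla and Sgsh, 0 fell and 7 were not called. Of all genes tested there 28.4% were called, 14.2% higher and 14.2% lower. The other 12 called genes of the set carry no match in this window or have no entry in the table. A match is a description of the letters, not evidence that a factor binds there.

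The 250 bases before the start site are shown for the called genes with a match, Gla and Sgsh, and for genes chosen after their values were seen, Cln3, which also holds the longer palindrome, and Lamp1 and Mcoln1, which hold several matches near the start; their link to any value was not tested. They lie at chrX:134601006-134601255 (minus strand) for Gla, chr11:119355511-119355760 (minus strand) for Sgsh, chr7:126583237-126583486 (minus strand) for Cln3, chr8:13158911-13159160 (plus strand) for Lamp1 and chr8:3500269-3500518 (plus strand) for Mcoln1. CACGTG is in capitals, and each sequence runs 5′ to 3′ on the strand of its gene, ending at the base before the start site.
Gla: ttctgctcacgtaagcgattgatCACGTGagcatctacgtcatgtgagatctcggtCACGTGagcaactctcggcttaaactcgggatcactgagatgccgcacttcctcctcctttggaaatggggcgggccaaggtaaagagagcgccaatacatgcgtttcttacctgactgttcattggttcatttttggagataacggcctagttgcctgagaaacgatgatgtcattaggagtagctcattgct
Sgsh: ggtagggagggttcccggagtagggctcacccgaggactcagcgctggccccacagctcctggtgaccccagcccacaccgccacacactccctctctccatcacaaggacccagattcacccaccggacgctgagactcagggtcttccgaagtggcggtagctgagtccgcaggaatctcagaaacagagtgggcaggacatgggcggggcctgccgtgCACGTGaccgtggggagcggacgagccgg
Cln3: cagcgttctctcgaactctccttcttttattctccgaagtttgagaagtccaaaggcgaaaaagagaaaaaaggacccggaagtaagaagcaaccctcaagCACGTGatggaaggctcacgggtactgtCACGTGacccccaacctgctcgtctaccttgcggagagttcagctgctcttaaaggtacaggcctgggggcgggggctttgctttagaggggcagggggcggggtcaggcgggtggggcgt
Lamp1: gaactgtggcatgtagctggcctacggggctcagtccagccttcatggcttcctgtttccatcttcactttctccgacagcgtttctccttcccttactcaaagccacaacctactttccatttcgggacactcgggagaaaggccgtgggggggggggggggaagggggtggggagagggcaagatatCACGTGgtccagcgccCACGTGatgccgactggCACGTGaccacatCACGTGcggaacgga
Mcoln1: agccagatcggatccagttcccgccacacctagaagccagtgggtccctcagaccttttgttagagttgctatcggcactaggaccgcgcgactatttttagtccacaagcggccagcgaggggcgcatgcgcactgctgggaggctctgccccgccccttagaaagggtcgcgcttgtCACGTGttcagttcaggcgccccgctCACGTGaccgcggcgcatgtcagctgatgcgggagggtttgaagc
The first base of each match lay 227 and 194 bases before the start in Gla, 29 in Sgsh, 149 and 121 in Cln3, 61, 45, 28 and 15 in Lamp1, and 71 and 45 in Mcoln1.

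In astrocytes, which share the KO mice, 0 of the 35 genes tested were called, where 1 of 15231 genes was called over the whole table (0.00657%, Usp18, higher in KO; 0% lower). At an unadjusted p under 0.05 limma gave 9 of 35, 2 with higher and 7 with lower values in KO astrocytes, beside 1939 of all genes tested (12.7%). The median log2 difference was -0.06 over the 35 genes, against 0.07 over all genes tested. KO and control astrocytes did not overlap for 2 of the 36 genes, Gaa and Cln3, both lower in KO astrocytes, where 4.40% of all genes tested did not overlap, 2.94% higher and 1.46% lower. Ids was under the expression filter, and an exact two-sided permutation test over its 126 assignments gave p = 0.571.

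Gaa had 70.6, 79.9, 67.9 and 75.0 TPM in KO astrocytes, against 109.9, 109.1, 89.9, 104.0 and 129.7 TPM in control astrocytes. All KO libraries lay lower, with a log2 difference of -0.55 (95% interval -0.81 to -0.30, adjusted p = 0.221), the smallest adjusted p of the set in astrocytes. Cln3 had 11.7, 12.9, 12.9 and 12.7 TPM in KO astrocytes, against 17.4, 19.6, 15.7, 16.1 and 15.5 TPM in control astrocytes, a difference of -0.39 (95% interval -0.66 to -0.13, adjusted p = 0.292). Psap had 325.8, 198.8, 302.2 and 262.7 TPM in KO astrocytes, against 403.5, 490.4, 315.8, 472.8 and 508.2 TPM in control astrocytes. It overlapped at KO mouse 1 and control mouse 3 and differed by -0.69 (95% interval -1.08 to -0.29, adjusted p = 0.284). Arsa had 43.8, 37.2, 40.4 and 53.2 TPM in KO astrocytes, against 53.6, 52.1, 54.4, 55.2 and 59.5 TPM in control astrocytes, and differed by -0.34 (95% interval -0.60 to -0.08, adjusted p = 0.336).

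Cd68 and Laptm5 are macrophage genes, and their astrocyte values moved with 1 library. Cd68 had 48.5, 6.0, 15.7 and 10.6 TPM in KO astrocytes, against 5.0, 6.8, 4.0, 6.1 and 4.9 TPM in control astrocytes, a difference of 1.36 (95% interval 0.32 to 2.39, adjusted p = 0.334). Laptm5 had 18.6, 1.7, 5.9 and 4.1 TPM in KO astrocytes, against 1.6, 4.6, 1.9, 2.3 and 5.1 TPM in control astrocytes, a difference of 0.77 (95% interval -0.37 to 1.91, adjusted p = 0.532). Without KO mouse 1 the difference was 0.82 (adjusted p = 0.455) for Cd68 and 0.24 (adjusted p = 0.828) for Laptm5. KO mouse 1 was highest for both, and the same library was highest for other macrophage genes, with 110.1 TPM of C1qa, 48.0 TPM of Pf4 and 22.1 TPM of Mrc1. The microglial marker P2ry12 did not follow them: KO mouse 1 had 12.4 TPM, the highest of the KO astrocytes, against 8.4 to 14.7 TPM in control astrocytes. As a share of their means in KO microglia, the levels in KO mouse 1 were 1.34% for Cd68, 1.33% for Laptm5, 1.56% for C1qa and 5.13% for P2ry12. Markers of border-associated macrophages summed to 20.3 to 116 TPM in KO astrocytes and 11.5 to 27.7 TPM in control astrocytes. Their part in these values was not tested.

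Other cell types also moved with the astrocyte groups. Oligodendrocyte markers summed to 6646 to 16870 TPM in KO astrocytes, highest in mouse 4, against 4623 to 6982 TPM in control astrocytes. Mural and fibroblast-like markers summed to 750.4 to 9616 TPM in KO astrocytes, highest in mice 3 and 1, against 198.5 to 3200 TPM in control astrocytes. No gene of the set was called with KO astrocyte mice 1 and 3 left out either. With fewer KO libraries no gene of the whole table was called in that setting, and mouse 4 stayed in it. It therefore cannot decide what part these marker shifts had. Of the 9 genes with an unadjusted p under 0.05, Cd68 and Lamp1 had higher and Gm2a, Arsa, Psap, Idua, Gaa, Tpp1 and Cln3 lower values in KO astrocytes. Apart from Cd68 and Laptm5, the log2 differences of the tested genes lay between -0.69 (Psap) and 0.36 (Mcoln1).

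Lamp1 had 85.3, 81.9, 99.2 and 109.2 TPM in KO astrocytes, against 74.8, 67.7, 88.4, 75.0 and 75.4 TPM in control astrocytes, a difference of 0.29 (95% interval 0.03 to 0.55, adjusted p = 0.364). Grn had 192.7, 168.4, 192.3 and 164.7 TPM in KO astrocytes, against 204.5, 206.5, 190.8, 171.4 and 224.6 TPM in control astrocytes, a difference of -0.15 (95% interval -0.38 to 0.08, adjusted p = 0.542). The groups overlapped for both genes. Tfeb had 1.8, 1.7, 2.7 and 4.8 TPM in KO astrocytes, against 2.8, 3.3, 1.8, 1.4 and 1.3 TPM in control astrocytes, and differed by 0.24 (95% interval -0.40 to 0.88, adjusted p = 0.746). Tfe3 had 3.0, 3.1, 2.6 and 2.9 TPM in KO astrocytes, against 2.5, 2.8, 3.2, 3.6 and 3.3 TPM in control astrocytes, and differed by -0.06 (95% interval -0.40 to 0.28, adjusted p = 0.889). Their levels again overlapped between the groups.

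Whether the KO effect on a gene differed between the cell types was tested over all 17 libraries. The KO effect was higher in microglia than in astrocytes for 5 of the 36 genes and lower for 3, which is 22.2%, where 15.5% of all 17087 genes tested were called, 6.63% higher and 8.87% lower. Those with a higher effect in microglia were Galc, by 1.23 (SE 0.23, adjusted p = 0.00133), Gla, by 1.14 (SE 0.29, adjusted p = 0.0117), Gaa, by 1.07 (SE 0.23, adjusted p = 0.00363), Neu1, by 0.74 (SE 0.18, adjusted p = 0.00890), and Idua, by 0.67 (SE 0.17, adjusted p = 0.0131). Those with a lower effect were Arsb, by -1.82 (SE 0.17, adjusted p = 9.53e-07), Npc1, by -1.31 (SE 0.23, adjusted p = 8.51e-04), and Man2b1, by -0.49 (SE 0.14, adjusted p = 0.0224).

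The astrocyte values of these genes show what the contrast rests on. Galc had 18.2, 18.8, 15.3 and 25.6 TPM in KO astrocytes, against 21.2, 12.1, 18.5, 18.6 and 18.9 TPM in control astrocytes, and Gla had 19.5, 20.9, 16.9 and 17.7 TPM in KO astrocytes, against 27.1, 22.1, 22.6, 11.9 and 12.7 TPM in control astrocytes, both overlapping. Npc1 had 62.6, 86.1, 74.3 and 126.0 TPM in KO astrocytes, against 76.6, 71.1, 84.1, 77.7 and 102.7 TPM in control astrocytes. Arsb had 73.1, 83.8, 64.6 and 92.8 TPM in KO astrocytes, against 74.3, 81.3, 79.3, 94.5 and 93.9 TPM in control astrocytes, again overlapping. For Gaa both parts contributed, with 0.52 in microglia and -0.55 in astrocytes, neither of which was called by itself. The same held for Idua, with 0.38 in microglia and -0.29 in astrocytes. Neu1 was called in microglia, at 0.56, and its astrocyte difference was -0.17.

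Neu1 had 50.7, 61.4, 59.6 and 62.3 TPM in KO astrocytes, against 68.6, 69.1, 56.0, 71.8 and 65.4 TPM in control astrocytes. Idua had 16.1, 20.6, 20.1 and 15.8 TPM in KO astrocytes, against 22.5, 19.7, 23.8, 22.3 and 22.9 TPM in control astrocytes, and Man2b1 had 12.7, 15.1, 13.1 and 15.1 TPM in KO astrocytes, against 13.9, 13.5, 13.8, 11.9 and 13.9 TPM in control astrocytes. The call of Man2b1 ended with each mouse as a block (adjusted p = 0.0562), without KO microglia of mouse 1 or 4 or control microglia of mouse 5 (adjusted p between 0.0502 and 0.0581), and with both other scalings of the TPM values (adjusted p = 0.0595 and 0.087). With each mouse as a block Naglu passed instead, at -0.58 (adjusted p = 0.0431), and it also passed without any of 4 single libraries, KO microglia of mouse 3, control microglia of mouse 2, KO astrocytes of mouse 1 and control astrocytes of mouse 3 (adjusted p between 0.0216 and 0.0422). The difference in effect was not called for Cd68, at -0.58 (95% interval -1.69 to 0.53, adjusted p = 0.526), or for Laptm5, at -1.69 (95% interval -2.92 to -0.46, adjusted p = 0.0598), which passed without KO astrocytes of mouse 2 or control astrocytes of mouse 5 (adjusted p between 0.0075 and 0.0433).

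The set was unevenly spread between the cell types of control mice. In control microglia against control astrocytes 22 of the 36 genes were higher, 6 lower and 8 not called, 77.8% in all, where 65.7% of all 15332 genes tested were called, 26.2% higher and 39.5% lower. Values did not overlap for 26 genes, 21 higher and 5 lower, beside 56.4% of all genes tested, 22.6% higher and 33.8% lower. The median log2 difference was 0.74 for the set and -0.19 over all genes. With quantile normalization the median of all genes was 0.08, called genes were 51.6% higher in place of 39.8%, and 24 of the set were higher and 5 lower. These control libraries also enter the comparisons with KO mice.

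Genes known from macrophages were furthest apart. Laptm5 averaged 2636 ± 146 TPM in control microglia (n = 4) and 3.10 ± 1.63 TPM in control astrocytes (n = 5), a log2 difference of 9.42 (SE 0.25, adjusted p = 3.15e-10), and Cd68 2110.0 ± 126 TPM in control microglia and 5.36 ± 1.10 TPM in control astrocytes, a difference of 8.39 (SE 0.13, adjusted p = 2.75e-11). Of the soluble enzymes, Man2b1 was higher in microglia by 4.05 (SE 0.10, adjusted p = 1.34e-10), Hexa by 2.98 (SE 0.10, adjusted p = 1.34e-09), Gusb by 2.92 (SE 0.11, adjusted p = 2.96e-09), Naglu by 2.11 (SE 0.13, adjusted p = 1.55e-07) and Arsb by 1.59 (SE 0.11, adjusted p = 3.47e-07). Grn averaged 2631 ± 255 TPM in control microglia and 199.6 ± 19.8 TPM in control astrocytes, a difference of 3.71 (SE 0.09, adjusted p = 2.27e-10). Tfe3 was higher by 2.55 (SE 0.13, adjusted p = 4.46e-08), with 21.6 to 23.9 TPM in control microglia and 2.5 to 3.6 TPM in control astrocytes, while Tfeb differed by 0.03 (95% interval -0.49 to 0.55, adjusted p = 0.920).

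The 6 genes lower in control microglia included acid sphingomyelinase, with 99.9, 101.3, 109.3 and 139.5 TPM of Smpd1 in control microglia, against 483.0, 373.9, 401.7, 442.6 and 452.1 TPM in control astrocytes, a difference of -1.93 (SE 0.12, adjusted p = 1.54e-07). Gla followed at -1.60 (SE 0.25, adjusted p = 2.06e-04), Gaa at -1.30 (SE 0.19, adjusted p = 1.16e-04), Mcoln1 at -0.83 (SE 0.31, adjusted p = 0.0358), Npc1 at -0.59 (SE 0.13, adjusted p = 0.00192) and Arsa at -0.56 (SE 0.14, adjusted p = 0.00555). The call of Mcoln1 ended without control microglia of mouse 1 or 2 or control astrocytes of mouse 3, 4 or 5 (adjusted p between 0.0637 and 0.104). Gm2a, Galc, Neu1, Psap, Idua, Sgsh, Lamp1 and Tfeb were not called, though Psap passed without control microglia of mouse 4 (adjusted p = 0.00899) and Neu1 without control microglia of mouse 1 (adjusted p = 0.0298).

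The remaining 13 genes higher in microglia had log2 differences between 0.32 (Tpp1) and 1.57 (Lipa). They were Lipa, Npc2, Ppt1, Asah1, Manba, Fuca1, Glb1, Lamp2, Scarb2, Ids, Cln3, Aga and Tpp1. Ids had 1.5 to 2.2 TPM in control microglia and 0.4 to 1.0 TPM in control astrocytes, so it met the filter through its microglial libraries. The counts of higher and of non-overlapping genes above include Ids, though its call is not independent of that filter. Aga, at 0.43 (SE 0.14, adjusted p = 0.0210), lost its call with each mouse as a block (adjusted p = 0.0871) and without control microglia of mouse 4 or 5 (adjusted p between 0.0611 and 0.0678). With control mice 1 and 2 alone the calls of Glb1, Arsa, Manba, Aga, Npc1, Tpp1 and Cln3 ended (adjusted p between 0.0631 and 0.781), and Tpp1 was then at 0.13. Ids and Sgsh did not meet the filter in that setting and were not tested. Over the 4 group means 15 genes were highest in KO microglia, 14 in control microglia, 3 in KO astrocytes (Npc1, Mcoln1 and Tfeb) and 4 in control astrocytes (Gla, Arsa, Smpd1 and Gaa). In KO astrocytes Npc1, Mcoln1 and Tfeb were highest in mouse 4, at 126.0, 102.0 and 4.8 TPM. The other KO astrocytes had at most 86.1, 75.6 and 2.7 TPM of them. Oligodendrocyte markers were also highest in mouse 4, and a link was not tested.

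**Figure D4:**
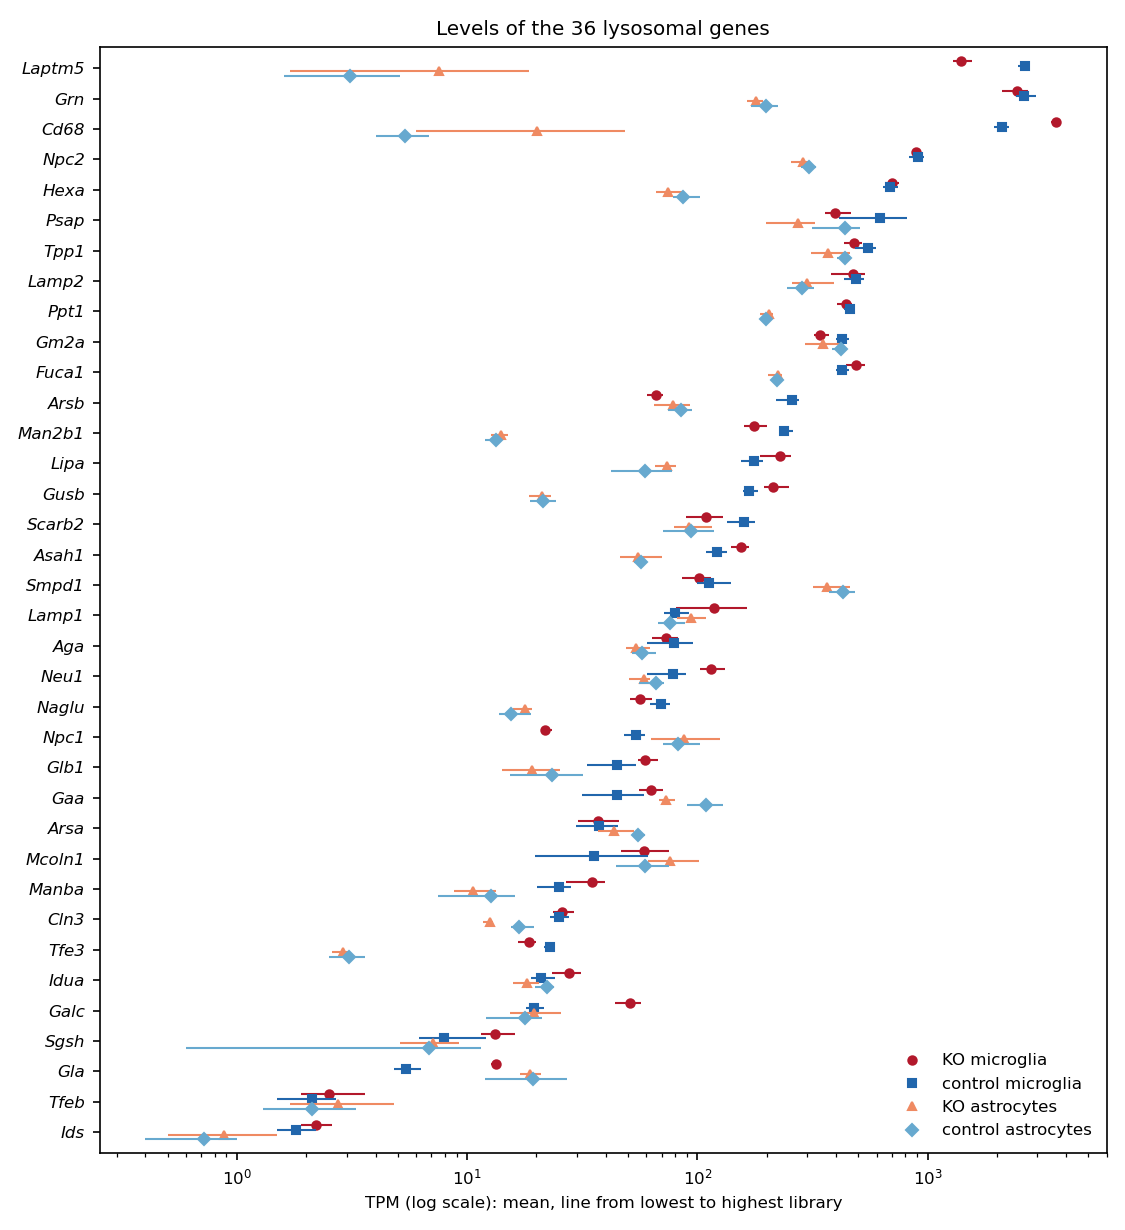
Level of each of the 36 genes in TPM on a log axis, with genes ordered by their mean in control microglia. Symbols are group means and lines run from the lowest to the highest library, for KO microglia, control microglia, KO astrocytes and control astrocytes. Laptm5 and Cd68 stand apart between cell types. In microglia the lines of KO and control do not touch for 14 genes. Among them are Arsb and Npc1, lower in KO, and Galc and Gla, higher in KO.

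Other genes of the lysosome were counted from lists drawn up with earlier results of the study known. In KO against control microglia the 28 other hydrolases tested had 3 higher and 6 lower (32.1% called, where 28.4% of all genes were called). Scpep1, a serine carboxypeptidase, averaged 705 ± 56.4 TPM in KO microglia and 338 ± 10.7 TPM in control microglia, a log2 difference of 1.05 (SE 0.08, adjusted p = 1.02e-05). Pld4, a lysosomal nuclease, differed by -1.09 (SE 0.09, adjusted p = 1.91e-05).

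Of 22 other membrane proteins tested 4 rose and 6 fell (45.5%, beside 28.4% of all genes). Cd63, a tetraspanin of late endosomes, averaged 845 ± 24.0 TPM in KO microglia and 353 ± 25.4 TPM in control microglia, a difference of 1.26 (SE 0.08, adjusted p = 2.61e-06). The nucleoside transporter gene Slc29a3 differed by -0.94 (SE 0.15, adjusted p = 0.00127) and Ostm1, a partner of a lysosomal chloride transporter, by -0.61 (SE 0.10, adjusted p = 0.00161).

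The vacuolar ATPase had 7 subunit genes higher and 3 lower of 19 tested (52.6%, beside 28.4% of all genes, 14.2% in each direction). Atp6v0a2 averaged 30.9 ± 2.63 TPM in KO microglia and 147 ± 21.1 TPM in control microglia, a difference of -2.21 (SE 0.12, adjusted p = 1.36e-06). Tcirg1, which encodes another form of the same membrane subunit, averaged 72.3 ± 8.87 TPM in KO microglia and 161 ± 18.1 TPM in control microglia, a difference of -1.15 (SE 0.12, adjusted p = 8.20e-05). Atp6v1c1 differed by -0.82 (SE 0.10, adjusted p = 2.67e-04).

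Of 25 genes tested for the sorting of enzymes to the lysosome 3 rose and 2 fell (20%, below the 28.4% of all genes). Sort1, the sorting receptor sortilin, averaged 3.73 ± 0.492 TPM in KO microglia and 12.8 ± 0.858 TPM in control microglia, a difference of -1.55 (SE 0.15, adjusted p = 3.99e-05). Gnptab, part of the enzyme that makes the mannose 6-phosphate tag, differed by 1.15 (SE 0.21, adjusted p = 0.00312) at 2.70 TPM in KO microglia and 0.700 TPM in control microglia. With a control mean under 1 TPM it met the filter largely through KO microglia, so its call is not independent of that filter. Arl8b, a small GTPase of lysosome transport, differed by -0.42 (SE 0.11, adjusted p = 0.0172). Of 18 genes tested for mTORC1, which holds Tfeb in the cytosol, its Rag anchors and the Tfeb family 3 rose and 1 fell (22.2%, also below it). Tfec, a relative of Tfeb expressed in macrophages, averaged 3.15 ± 0.520 TPM in KO microglia and 0.475 ± 0.359 TPM in control microglia, a difference of 1.52 (SE 0.22, adjusted p = 7.58e-04), and was listed at 0 in all astrocyte libraries. The same limit as for Gnptab holds for Tfec, whose values lie close to the floor of the listed TPM. Rptor, the gene of the mTORC1 subunit raptor, differed by -1.13 (SE 0.18, adjusted p = 0.00137), and Lamtor2, of the Rag anchor, by 0.57 (SE 0.16, adjusted p = 0.0248).

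No gene of these lists was called in KO against control astrocytes, and the smallest p-values were those of Naaa at -0.75 (adjusted p = 0.221) and Lyz2 at 2.80 (adjusted p = 0.291) among hydrolases, Slc15a4 at 0.98 (adjusted p = 0.359) and Tmem175 at -0.28 (adjusted p = 0.378) among membrane proteins, Atp6v0c at -0.32 (adjusted p = 0.291) and Atp6v0e at -0.43 (adjusted p = 0.292) in the ATPase, Rab7 at 0.23 (adjusted p = 0.359) and Vps29 at 0.20 (adjusted p = 0.377) in sorting, and Rragc at 0.66 (adjusted p = 0.288) and Rraga at -0.52 (adjusted p = 0.386) among regulators. The KO effect differed between cell types, higher and lower in microglia, for 3 and 2 of 29 hydrolases (17.2%, where 15.5% of all genes were called, 6.63% higher and 8.87% lower), among them Scpep1 at 1.31 and Arsg at -2.26. Among 23 membrane proteins it was 2 and 3 (21.7%), led by Cd63 at 1.51, Cln6 at 2.89 and Tmem106b at -1.04. It was 3 and 3 of 19 ATPase subunits (31.6%), led by Atp6v0a2 at -2.67, Atp6v1c1 at -1.01 and Tcirg1 at -1.06. Among 26 sorting genes it was 1 and 2 (11.5%), Arl8a at 0.87 and Sort1 at -1.82 and Arl8b at -0.46, and among 20 regulators 1 and 1 (10%), Tfec at 1.52 and Rptor at -1.22. Tfec met the filter of this fit largely through KO microglia, so its call is not independent of the filter.

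Between the cell types of control mice the other hydrolases were called 17 higher and 3 lower of 28 (71.4%, where 65.7% of all genes were called, 26.2% higher and 39.5% lower), among them Pld4 at 9.46 and Pla2g15 at 3.89. Membrane proteins were called 7 higher and 7 lower of 22 (63.6%), with Slc15a3 at 4.89, Laptm4b at -1.91 and Cd63 at -1.38. The ATPase had 8 higher and 7 lower of 19 (78.9%), with Tcirg1 at 2.76, Atp6v0e2 at -6.06 and Atp6v0a2 at 1.80. Sorting genes had 11 higher and 7 lower of 26 (69.2%), with Sorl1 at -1.93, M6pr at 0.93 and Arl8a at -1.72, and regulators 8 higher and 6 lower of 18 (77.8%), with Rptor at 2.29, Rragc at 2.10 and Rragd at -2.41. Slc15a3 averaged 0.9 TPM in control astrocytes and Rragd 0.175 TPM in control microglia. Each met the filter largely through the group where it is high.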

How the data were processed

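TPM values from 17 libraries of sorted brain cells were used. The authors deposited TPM with 1 decimal, 1 file per library; per the submitters' processing notes Trim Galore 0.4.2, cutadapt 1.9.1, STAR 2.6.1e, featureCounts 1.6.2 and build mm10 were used. Their roles, the annotation, the strand setting and the treatment of multimapping reads are not given in the sources used here. Per the labels' protocols reads were paired, 61 bp, to a target of about 60 M reads. TPM keeps no depth, so no counting interval is given, and values under 0.05 are listed as 0. Of the 36 genes 12 share exon bases with another gene in GENCODE M21 (Hexa, Glb1, Galc, Arsa, Idua, Sgsh, Arsb, Npc1, Ppt1, Grn, Lamp1 and Cln3), most of all Arsb (32.3%), Sgsh (21.6%) and Arsa (18.8%), and their values are uncertain to that extent. A further library, with the title of an astrocyte library and a sample code ending like those of microglia, was left out.

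Groups came from the labels. A gene entered a fit where 4 or more of its libraries reached 1 TPM, and values were tested as log2(TPM + 1) with limma 3.58.1 in R 4.3.3 (variance trend, two-sided), with p-values adjusted over all genes. Each library is a separate mouse of its group. Microglia and astrocytes of the same genotype and number come from the same mouse per the titles; their deviations from group means correlated by 0.0178 to 0.219, and each mouse as a block was an alternative. Other alternatives were pseudocounts of 0.1 and 5 TPM, no filter, median-of-ratios scaling, quantile normalization, each kind of control alone, leaving out each library and, chosen after the data were seen, leaving out KO astrocytes of mice 1 and 3. The procedure was tested on simulated data.

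The 36 genes, the other lists and the tests were chosen with earlier results of these data known. All 36 genes are named, with values in every microglial library for those called in microglia, and in every library for those whose KO effect differed between cell types, Tfeb, Tfe3, Lamp1, Cd68 and Grn; per-library values of further genes were chosen after they were seen. Of each other list up to 3 called genes with the smallest p were named, or 2 where none was called, and 1 gene this rule names is not reported here; macrophage genes given for KO astrocyte mouse 1 were chosen after their values were seen. Tables and plots were made with pandas 2.3.3 and matplotlib 3.10.9.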

Additional observations from a re-analysis of the deposited data

Results flagged for a closer look

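In 5 of 144 combinations of gene and group (3.47%) the highest or lowest library stood far from the rest of its group, a share near the roughly 1 in 20 that chance gives. In KO microglia Glb1 had 67.5 TPM in mouse 3, against 55.1 to 56.9 TPM in the other KO mice. In control microglia Sgsh had 12.1 TPM in mouse 5, against 6.2 to 7.1 TPM in the others. In KO astrocytes Lamp2 had 390.4 TPM in mouse 2, against 256 to 278 TPM in the others, and Cln3 had 11.7 TPM in mouse 1, against 12.7 to 12.9 TPM. In control astrocytes Man2b1 had 11.9 TPM in mouse 4, against 13.5 to 13.9 TPM in the others.

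The KO effect in microglia minus that in astrocytes passed limma's test (adjusted p under 0.05) for 8 genes. On the log2 scale it was 1.23 for Galc, 1.14 for Gla, 1.07 for Gaa, 0.74 for Neu1 and 0.67 for Idua, and it was -1.82 for Arsb, -1.31 for Npc1 and -0.49 for Man2b1. The cause was not tested.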

How the results depend on the processing

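No gene called in the set changed sign under any alternative. In KO against control microglia 6 of 14 calls passed under all 16 settings, and 8 ended under at least 1. The replicate number as a block, which joins different mice, left 2079 genes called in place of 3711 and 3 of the set higher and 3 lower. Same-numbered KO and control libraries correlated by 0.0026 to 0.0232 in microglia and -0.0918 to 0.185 in astrocytes. Libraries of the same mouse correlated by only 0.0178 to 0.219, so these values cannot tell whether the numbers pair KO and control. Control mice 4 and 5 alone left 4 higher. Leaving out single libraries gave 2735 to 3611 genes, 4 to 9 higher and 5 to 8 lower of the set.

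In KO against control astrocytes 1 gene was called, 3 without a filter, 3 against control mice 3, 4 and 5, and 0 with the block, against control mice 1 and 2, or without KO mice 1 and 3; leaving out single libraries gave 0 to 5. The set had 0 called under all 18 settings. Between cell types of control mice, control mice 1 and 2 alone gave 3339 called genes and mice 3, 4 and 5 alone 6063, in place of 10078. These settings had fewer libraries and also tested fewer genes, since the filter of 1 TPM in 4 libraries was kept. With mice 1 and 2 alone a gene had to reach 1 TPM in every library of both cell types. Ids was not tested with either kind of control and so is missing from the lowest count of higher genes. Single libraries left out gave 8773 to 9693, and 21 to 23 of the set higher and 5 to 6 lower. The other settings gave 16 to 24 higher and 4 to 6 lower. For the difference in KO effect 5 genes of the set were lower with a pseudocount of 5 TPM, 8 higher with median-of-ratios scaling and 3 higher with control mice 3, 4 and 5; single libraries left out gave 2089 to 2729 genes, 5 to 6 of the set higher and 2 to 4 lower. Each mouse as a block changed no other call than those of Aga, Man2b1 and Naglu. Gla lost its call in this contrast with control mice 3, 4 and 5 (adjusted p = 0.073), and Idua with either kind of control (adjusted p = 0.0922 and 0.0604). Where a cause is not named, it was not tested. Group sizes of 4 and 5 and values with 1 decimal limit what low genes such as Ids and Tfeb can show.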
